A study of Mus musculus with 119 samples.

Results

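The genes described here are 9 genes used to recognise microglia, P2ry12, Tmem119, Cx3cr1, Csf1r, C1qa, C1qb, C1qc, Aif1 and Trem2. They were chosen by name, with earlier results of these data known. All 9 are among the 55291 genes counted in each library. Microglia are the resident macrophages of the brain. They arise from yolk sac progenitors, renew themselves locally, depend on signalling through the CSF1 receptor, survey the tissue with motile processes and remove debris and synapses, in part after tagging by complement. Activation changes their shape and their transcripts, and genes of the resting state such as P2ry12 and Tmem119 commonly fall while phagocytic and lipid-handling genes rise.

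RNA was measured in punches of the prefrontal cortex (PFC), the dorsal striatum (DMS in the sample titles, dorsolateral striatum in the tissue label), the nucleus accumbens (NAc), the amygdala (Amy) and the ventral tegmental area (VTA). The mice were C57BL/6J females and males by the labels. Each received either vehicle (ethanol, Tween and saline) or 10 mg/kg THC, the main psychoactive compound of cannabis, by 21 daily intraperitoneal injections from postnatal day 28 to 48, was tested in behavioural assays from postnatal day 63 and is labelled 11 weeks old. Of the 20 groups of region, sex and treatment, 19 held 6 libraries and the vehicle-treated male VTA held 5, 119 in all. By the study's methods each mouse gave all 5 regions, so libraries of different regions share animals, but no label ties a library to its mouse. Tests between regions therefore treat libraries as independent that are not, and could not be blocked by mouse.

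Depth, the summed expected count of a library, ran from 3090998 to 77042133 with a median of 22092612. It spanned 17826631 to 25470245 in the PFC and DMS, and 3090998 to 77042133 in the VTA, whose shallowest library was the male vehicle library FTL_371. Even there the member with the fewest reads, Aif1, had an expected count of 14, and Csf1r had 213. Summed dopaminergic markers (Th, Slc6a3 and 6 others) reached 1171 to 4111 CPM in the VTA and at most 56.8 CPM elsewhere, striatal markers peaked in the DMS and cortical ones in the PFC, as the region labels say. Single libraries differed: the female DMS vehicle library FTL_285 had 260 CPM of cortical markers, and the other DMS libraries at most 26.4. In the female VTA the dopaminergic sums of the THC libraries FTL_363 and FTL_368 were 1171 and 1631 CPM. The other THC libraries there had 2465 to 3838 CPM and the vehicle libraries 2731 to 3831. The labelled female Amy THC library FTL_344 had Xist at 0.293 CPM and summed Y-linked genes at 139 CPM, and the labelled male Amy THC library FTL_356 had Xist at 489 CPM and Y-linked genes at 0.371 CPM. Both go against their sex labels, and the THC, sex and interaction results of the Amy are given with and without them.

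Some members are close neighbours in the genome. C1qa (chr4:136895917-136898803), C1qb (chr4:136880129-136886187) and C1qc (chr4:136889804-136893065), all on the minus strand of GRCm38 (the same assembly as mm10), lie within 18675 bases and encode the 3 chains of C1q, the recognition part of the classical complement pathway. The 250 bases before the RefSeq start of 6 members (P2ry12, C1qb, C1qc, Cx3cr1, Aif1 and Trem2) were searched for GAGGAA and its reverse complement TTCCTC, the purine-rich core of sites for PU.1, the transcription factor encoded by Spi1 that myeloid cells need. The word occurred in 4 of these 6 promoters, C1qb, C1qc, Aif1 and Trem2, and in 23.3% of all 32851 promoters of the same length. In C1qc it lay 193 to 188 bases before the start. A match of 6 letters is a description of the sequence and not a measured binding site. The windows with the match nearest to the start are printed 5′ to 3′ on the strand of the gene (RefSeq, GRCm38.p6), to show where the word lies, with the word in capitals. They are chr4:136886201-136886450 on the minus strand, with the word 30 to 25 bases before the start, chr17:48346151-48346400 on the plus strand, with it 40 to 35 bases before, and chr17:35176053-35176302 on the minus strand, with it 7 to 2 bases before.
C1qb: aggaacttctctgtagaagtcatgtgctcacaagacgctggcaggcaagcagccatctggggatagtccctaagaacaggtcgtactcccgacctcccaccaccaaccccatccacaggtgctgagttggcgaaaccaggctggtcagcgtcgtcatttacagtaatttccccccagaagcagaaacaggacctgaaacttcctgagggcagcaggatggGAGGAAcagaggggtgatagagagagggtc
Trem2: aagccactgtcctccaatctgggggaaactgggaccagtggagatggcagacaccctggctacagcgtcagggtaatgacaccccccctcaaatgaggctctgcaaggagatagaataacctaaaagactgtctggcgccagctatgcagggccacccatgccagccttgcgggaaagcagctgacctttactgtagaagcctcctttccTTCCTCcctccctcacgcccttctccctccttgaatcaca
Aif1: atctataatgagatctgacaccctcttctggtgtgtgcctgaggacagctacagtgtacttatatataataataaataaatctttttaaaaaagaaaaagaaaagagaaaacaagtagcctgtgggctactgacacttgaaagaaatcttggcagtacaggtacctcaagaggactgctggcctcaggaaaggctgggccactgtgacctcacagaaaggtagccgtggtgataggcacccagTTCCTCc

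All 9 members were measured in all 119 libraries. Levels are CPM, read counts per 1000000 after TMM scaling, a correction for differences in composition between libraries. Levels per kilobase were divided by the joined annotated exons of all transcripts of a gene. By this measure C1qb (37.9 CPM per kb) and C1qa (35.5) were highest, followed by C1qc (16.9), Csf1r (13.7), P2ry12 (11.6), Cx3cr1 (10.4) and Tmem119 (9.41). Aif1 (3.02) and Trem2 (2.25) were lowest. The joined length, 4946 bases for Trem2 and 1532 for Aif1, can exceed that of the RNA present, so the order of the genes is approximate. Region accounted for most of the variance of log2 CPM in P2ry12, 74.4%, and for the smallest share in Csf1r, 29.1%. Libraries of the same group accounted for 18.8% in P2ry12 and for 50.3% in Aif1, the member with the lowest counts.

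**Figure D1:**
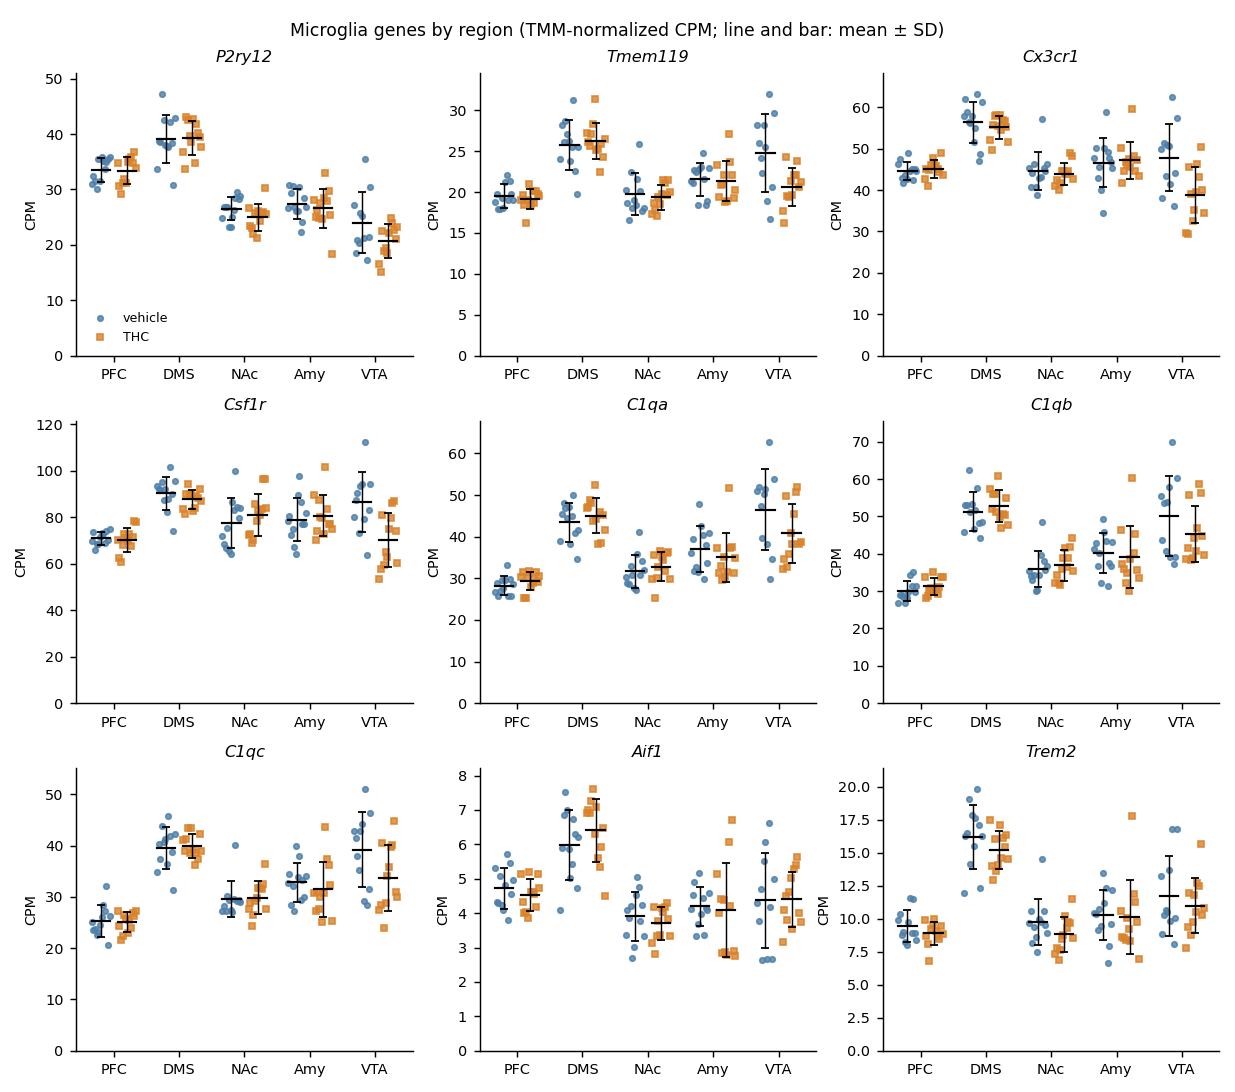
TMM-normalized CPM (y axis, from 0) of each gene in every library by region (x axis), vehicle as circles and THC as squares, with the mean ± SD of each treatment, sexes together. The DMS is high for most genes, the PFC low for the C1q chains, the VTA low for P2ry12, and the VTA libraries spread widely.

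The first question was how the members differed between regions in vehicle-treated mice (12 libraries a region, 11 in the VTA). The DMS had the highest mean for 8 of the 9 members and the VTA for C1qa, and the PFC had the lowest for 7. The highest regional mean exceeded the lowest by 1.26-fold in Cx3cr1, the smallest range, and by 1.71-fold in Trem2 and C1qb. PFC and DMS were deposited in 1 table and NAc, Amy and VTA in another, and what sets these tables apart, if anything does, is part of every regional contrast across them. In these punches a change in the number of microglia and a change in RNA per cell cannot be told apart, here and in every comparison that follows.

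P2ry12, the ADP receptor that steers microglial processes toward injury (chr3:59216272-59262871), had its own regional order. Mean P2ry12 was 39.0 ± 4.31 CPM (SD) in the DMS, 33.6 ± 2.17 in the PFC, 27.4 ± 2.66 in the Amy, 26.5 ± 2.08 in the NAc and 24.0 ± 5.51 in the VTA. The lowest, median and highest libraries were at 30.8, 38.5 and 47.2 CPM in the DMS and at 17.3, 21.3 and 35.6 CPM in the VTA. The ranges overlapped through 1 VTA library, FTL_370, and the other 10 lay below every DMS library. VTA against DMS differed by -0.72 on the log2 scale (adjusted p = 1.03e-13, edgeR quasi-likelihood test). Of neighbours in the order, Amy and NAc (adjusted p = 0.95) and NAc and VTA (0.0678) were not separated.

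Tmem119, a membrane protein found on microglia and not on most other macrophages (chr5:113793729-113800516), had means of 25.7 ± 3.01 CPM in the DMS, 24.8 ± 4.75 in the VTA, 21.6 ± 2.03 in the Amy, 19.8 ± 2.57 in the NAc and 19.5 ± 1.42 in the PFC. The only neighbours in this order that differed were VTA and Amy (adjusted p = 0.00479, edgeR). Cx3cr1, the receptor for the neuronal ligand fractalkine (chr9:119901616-120069879), was at 56.3 ± 5.05 CPM in the DMS, and the VTA (47.8 ± 8.05), Amy (46.6 ± 5.94), NAc (44.7 ± 4.62) and PFC (44.7 ± 2.16) followed, with no neighbours among them separated at an adjusted p of 0.05. Csf1r, the receptor for CSF1 and IL-34 on which microglial survival depends, had means of 90.3 ± 6.98 CPM in the DMS, 86.5 ± 12.9 in the VTA, 78.9 ± 9.29 in the Amy, 77.5 ± 10.7 in the NAc and 71.0 ± 2.83 in the PFC. For Csf1r the DMS and VTA (adjusted p = 0.0993) and the Amy and NAc (0.882) were not separated.

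The C1q chains had similar regional orders. C1qa had means of 46.4 ± 9.73 CPM in the VTA, 43.4 ± 4.65 in the DMS, 37.0 ± 5.41 in the Amy, 31.7 ± 3.91 in the NAc and 28.2 ± 2.26 in the PFC. C1qb had means of 51.3 ± 5.18 CPM in the DMS, 50.1 ± 10.7 in the VTA, 40.1 ± 5.38 in the Amy, 35.8 ± 4.85 in the NAc and 30.0 ± 2.65 in the PFC. C1qc had means of 39.6 ± 4.05, 39.2 ± 7.33, 32.8 ± 3.74, 29.5 ± 3.50 and 25.3 ± 3.04 CPM in the same order of regions as C1qb. For each chain the VTA and DMS were not separated (adjusted p = 0.438 to 0.554, edgeR), while both lay above the Amy and the NAc lay above the PFC. C1qb in the PFC ran from 26.7 to 35.1 CPM and in the DMS from 44.2 to 62.4 CPM, without overlap, a log2 difference of 0.83 (adjusted p = 3.48e-14). The chains kept close proportions: the ratio of C1qb to C1qa was 1.12 ± 0.0874 (SD) over all 119 libraries and that of C1qc to C1qa was 0.887 ± 0.0697.

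Aif1, which encodes the calcium-binding protein IBA1 used to stain microglia (chr17:35170991-35176068), was at 5.97 ± 1.01 CPM in the DMS, 4.72 ± 0.601 in the PFC, 4.37 ± 1.37 in the VTA, 4.20 ± 0.568 in the Amy and 3.91 ± 0.717 in the NAc. Trem2, a lipid receptor that signals through the adaptor Tyrobp (chr17:48346401-48354147), was at 16.2 ± 2.44 CPM in the DMS, 11.7 ± 3.02 in the VTA, 10.3 ± 1.92 in the Amy, 9.77 ± 1.76 in the NAc and 9.46 ± 1.19 in the PFC. Both stood out in the DMS, and below it no neighbours in either order differed at an adjusted p under 0.05. For Trem2 the DMS exceeded the VTA, the next region, by 0.47 on the log2 scale (adjusted p = 4.78e-05), and for Aif1 it exceeded the PFC by 0.39 (adjusted p = 0.00232). Over all members, 15 of 36 neighbouring pairs differed at an adjusted p under 0.05.

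Counts of calls between regions are read against a high background, because most genes differed between these tissues. A call was an adjusted p under 0.05 with a log2 fold change of 0.4 or more in size. DMS against PFC gave 5 of 9 members called, with 49.3% of the 18331 genes tested called. NAc against DMS gave 7 of 9, with 30.8% of genes called. Amy against DMS gave 4 of 9 (43.2% of genes), VTA against PFC 4 of 9 (55%), VTA against DMS 3 of 9 (57.5%) and VTA against NAc 2 of 9 (51.9%). Amy against PFC gave 1 of 9 (37.5%), and VTA against Amy (43.5%), Amy against NAc (24.9%) and NAc against PFC (45.4%) gave 0 of 9, where 7, 1 and 6 members had an unadjusted p under 0.05 and DESeq2 also called 0. Without the fold criterion the DMS was higher for 9 of 9 members than the PFC, where 42.8% of genes were higher in the DMS at an adjusted p under 0.05, than the NAc (32.3%) and than the Amy (39.1%). With library totals in place of TMM the DMS stayed highest for P2ry12, Cx3cr1, Aif1 and Trem2, while Tmem119, Csf1r, C1qb and C1qc were highest in the VTA. That scaling moved the median of all genes by 0.12 to 0.18 on the log2 scale between regions of different tables and by 0.01 to 0.03 within a table.

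The members also varied together among libraries of the same group. After the mean of each of the 20 groups was taken out, every pair of members correlated positively over the 119 libraries, from r = 0.39 for Cx3cr1 and Aif1 to 0.84 for C1qa with C1qb or C1qc. Outside the C1q chains the closest pairs were Cx3cr1 with Csf1r (r = 0.81) and C1qb with Trem2 (0.81). The correlation of a member with the mean of the others was lowest for Aif1 (0.66) and highest for C1qb (0.88). These points share libraries, depth and dissection, and no p is given. Without FTL_344, FTL_356 and the shallowest library the pairs ran from 0.42 to 0.85.

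**Figure D2:**
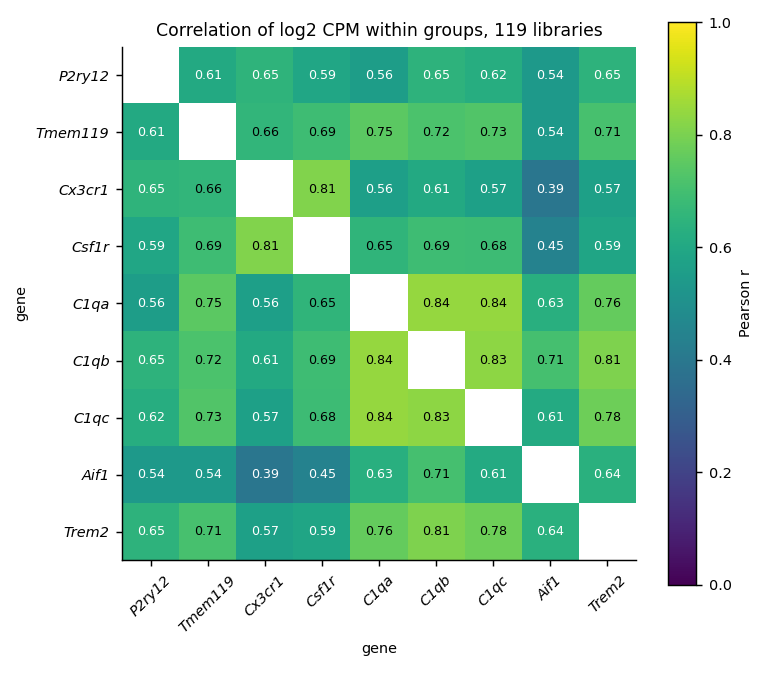
Pearson r between log2 CPM of each pair of members (rows and columns) over 119 libraries, after the mean of each of the 20 groups was taken out; colour runs from 0 to 1. All pairs are above 0, the 3 C1q chains with Trem2 form the block of highest values (0.76 to 0.84), and Aif1 is the least alike.

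Among all other genes, the 10 whose levels followed the mean of the members most closely in the same 119 libraries included Selplg (r = 0.84), Ctss (0.82), Olfml3 (0.82), Fcgr3 (0.80), Siglech (0.78), Cd53 (0.77), Ftl1 (0.75), Mpeg1 (0.73) and Fcrls (0.72). Ctss encodes a lysosomal protease, Fcgr3 an antibody receptor and Ftl1 the light chain of ferritin. Of these 10, 8 were on a list of 30 other genes known for high expression in microglia. The mean of 29 of those genes, with Runx1 left out for its low mean CPM, correlated with that of the members at r = 0.945 (n = 119). Lists of other cells were further away, with r = 0.42 for border macrophages, 0.39 for endothelium, 0.35 for astrocytes, 0.34 for oligodendrocytes and -0.24 for neurons. The share of counts in mitochondrially encoded genes (r = 0.56), the share in ribosomal protein genes (0.46) and log2 depth (0.34) moved with the members as well, and their part in the levels was not tested.

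The main question of the study was whether THC in adolescence left a lasting difference from vehicle, and it was asked for each region and sex. None of the 9 members was called in any of the 10 groups by edgeR (smallest adjusted p = 0.221 among 90 tests). The share of all genes called was 0% in 8 of the groups, 0.0127% in the female DMS and 1.57% in the female Amy. In the 8 groups outside the VTA the 72 log2 fold changes lay between -0.21 and 0.18, with 36 above 0 and 36 below. There 5 had an unadjusted p under 0.05: C1qb in the female PFC (0.15 ± 0.055 SE), where 5.84% of all genes had such a p, Trem2 in the female NAc (-0.21 ± 0.09, 4.61% of genes), and P2ry12, C1qc and Trem2 in the female Amy. The members had 0 in the male PFC (4.07% of genes), female DMS (8.9%), male DMS (1.93%), male NAc (16.7%) and male Amy (1.84%). DESeq2 called 0 members in these 8 groups, though in the male NAc its own filter left only 2 members with an adjusted p.

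**Figure D3:**
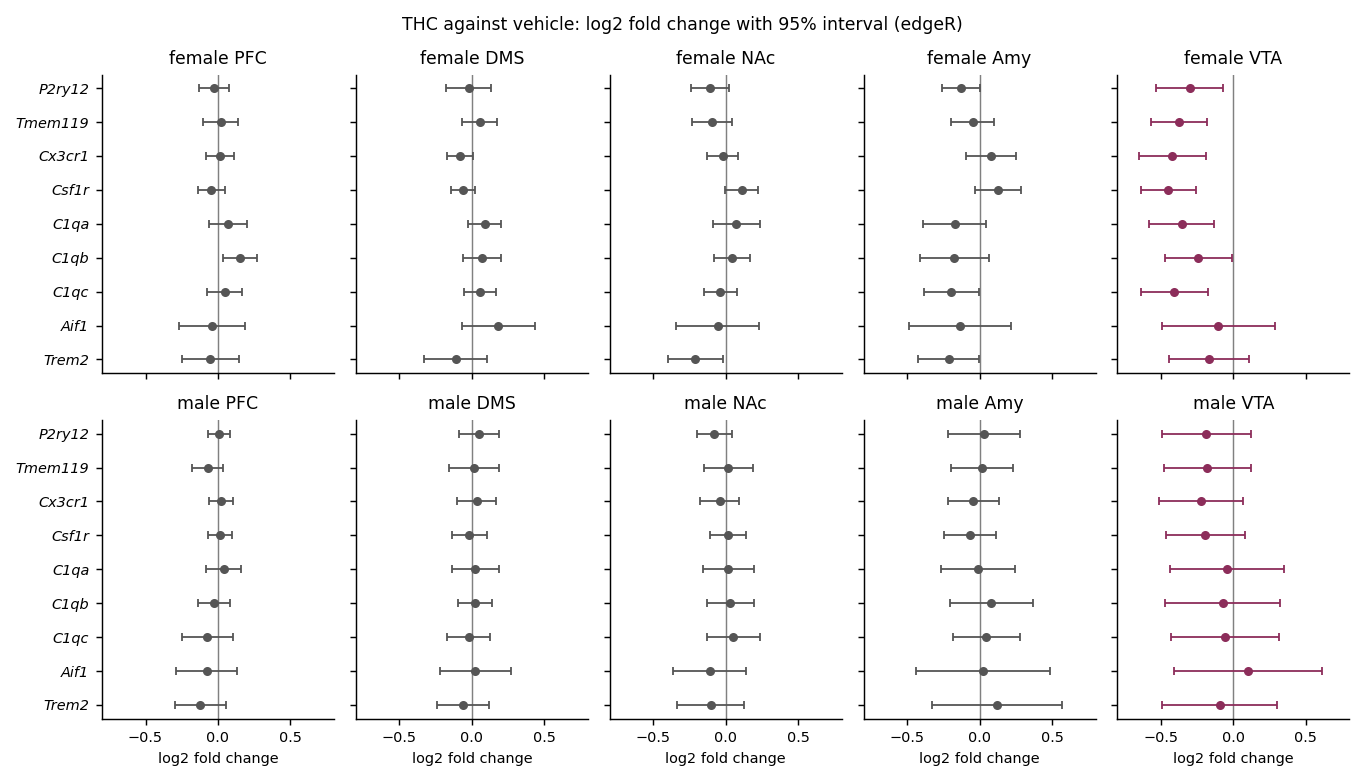
Log2 fold change of THC against vehicle (x axis) with its 95% interval from edgeR for the 9 genes (y axis) in the 10 groups of region and sex; the VTA is drawn in purple. Intervals cover 0 for most genes in 9 panels, and in the female VTA 7 of 9 lie wholly below 0.

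In the female Amy 3 of 9 members had an unadjusted p under 0.05, where 21.9% of all genes did. P2ry12 had its lowest, median and highest library at 26.1, 28.0 and 30.8 CPM with vehicle and at 24.6, 25.6 and 28.0 CPM with THC, a log2 fold change of -0.13 ± 0.06. The groups overlapped. C1qc (-0.19 ± 0.09) and Trem2 (-0.21 ± 0.10) were also lower in THC, and Csf1r (0.13 ± 0.07) and Cx3cr1 (0.08 ± 0.08) lay above 0, all with adjusted p of at least 0.221. Without FTL_344 none had an unadjusted p under 0.05 and the median of the members moved from -0.13 to -0.11. In the male Amy the median was 0.02 with all libraries and 0.12 without FTL_356. The cortical neuron genes Slc17a7 (0.76 ± 0.11, adjusted p = 0.00859), Tbr1 (0.94 ± 0.14, 0.0103) and Neurod6 (0.83 ± 0.18, 0.0353) were called higher in the THC libraries of the female Amy, the transcription factor gene Nr4a2 (0.60 ± 0.11, 0.0168) was also higher, and the astrocyte gene Agt (-0.80 ± 0.13, 0.0111) and Th (-0.64 ± 0.13, 0.0253) were lower. Of the lists, striatal genes had 6 of 7 and neuronal genes 6 of 10 higher at an unadjusted p under 0.05, with medians of 0.67 and 0.19. All 10 oligodendrocyte genes were below 0 with a median of -0.44 and 2 lower at that threshold. Interferon genes had 4 of 11 tested lower, with a median of -0.19. The 3 tested choroid plexus genes had the largest median, 1.18, and 0 at that threshold. Their list sum was highest in FTL_343 (3586 CPM) and FTL_344 (2243 CPM). Over all 17003 genes, 1830 were higher and 1894 lower at that threshold. The 30 other microglia genes had 4 higher and 3 lower, with a median of -0.0035. The part of these lists in the values of the members was not tested.

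The female VTA held 7 of the 12 unadjusted p under 0.05 among the 90 tests. All 9 had a log2 fold change below 0, where 50% of all genes did, and 7 of 9 had an unadjusted p under 0.05 and a lower level with THC, where 4.38% of all genes did (9.02% in either direction). With the group means taken out, pairs of members correlated at r = 0.46 to 0.94 in these libraries, so the 9 tests are not separate observations. The members were also chosen with earlier results of these data known. None passed the correction over the 15747 genes tested by edgeR, in which 0% of genes were called. The median log2 fold change of the members was -0.36, beside 0.000143 over all genes tested. DESeq2 called 1 member, Csf1r, among the 0.0449% of genes it called. Leaving out the THC library FTL_365 gave 4 members called by edgeR, Cx3cr1, Csf1r, C1qa and C1qc, with 0.0948% of genes called and a median of -0.45 over the members, while leaving out any of the 11 other libraries gave 0.

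Csf1r had the largest difference of the members. Its lowest, median and highest library were at 73.4, 88.9 and 94.2 CPM with vehicle and at 53.6, 61.1 and 81.0 CPM with THC. Of the 6 THC libraries 5, at 53.6 to 64.98 CPM, lay below all vehicle libraries, and FTL_365, at 81.0 CPM, lay among them. Mean Csf1r was 86.5 ± 8.20 CPM with vehicle and 63.2 ± 9.55 with THC (SD, n = 6 each), a log2 fold change of -0.45 ± 0.09 (95% interval -0.64 to -0.25) with an adjusted p of 0.512 by edgeR. Over the 16 alternatives its adjusted p ran from 0.00871, without FTL_365, to 0.826, and it was 0.0147 by DESeq2.

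The other receptor and surface genes had a like arrangement. Cx3cr1 was at 38.2, 50.4 and 51.4 CPM (lowest, median, highest) with vehicle and at 29.5, 33.8 and 45.6 CPM with THC, a log2 fold change of -0.42 ± 0.11. Of its THC libraries 4 were below all vehicle libraries, and the highest was FTL_365. Tmem119 was at 22.3, 25.8 and 28.2 CPM with vehicle and at 16.2, 19.5 and 24.2 CPM with THC (-0.37 ± 0.09). Again 5 THC libraries were below all vehicle libraries and FTL_365 was among them. P2ry12 was at 18.5, 23.0 and 27.1 CPM with vehicle and at 15.2, 18.7 and 22.6 CPM with THC (-0.30 ± 0.11), with only 2 THC libraries below all vehicle libraries, though all 6 were below the vehicle median. The adjusted p was 0.512 for each of the 3 genes (edgeR). It ran over the alternatives from 0.0443 to 0.826 for Cx3cr1, from 0.056 to 0.826 for Tmem119 and from 0.163 to 0.826 for P2ry12.

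The complement genes were lower by similar amounts. C1qa was at 39.6, 50.6 and 51.9 CPM with vehicle and at 32.1, 35.3 and 49.8 CPM with THC, a log2 fold change of -0.36 ± 0.10. C1qc was at 35.2, 42.2 and 44.1 CPM with vehicle and at 24.0, 28.6 and 40.5 CPM with THC (-0.41 ± 0.11). C1qb was at 40.7, 53.6 and 58.0 CPM with vehicle and at 38.3, 40.2 and 55.8 CPM with THC (-0.24 ± 0.11). For C1qa and C1qc 4 and 5 THC libraries were below all vehicle libraries, and for C1qb 3 were, and FTL_365 was the highest THC library for each chain. The adjusted p of C1qa, C1qc and C1qb was 0.512, 0.512 and 0.530 (edgeR), and over the alternatives it ran from 0.0443 to 0.826, from 0.0337 to 0.826 and from 0.132 to 0.844.

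Aif1 and Trem2, the members with the fewest reads, were not separated. Aif1 was at 2.65, 4.50 and 6.06 CPM with vehicle and at 3.15, 4.29 and 5.02 CPM with THC, with a log2 fold change of -0.10 and a 95% interval of -0.49 to 0.28. Trem2 was at 8.82, 10.6 and 13.7 CPM with vehicle and at 7.79, 9.57 and 11.99 CPM with THC (-0.17, interval -0.45 to 0.10). Both groups overlapped for both genes, and these intervals include the differences seen for the other members. Their adjusted p was 0.875 and 0.692 (edgeR).

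**Figure D4:**
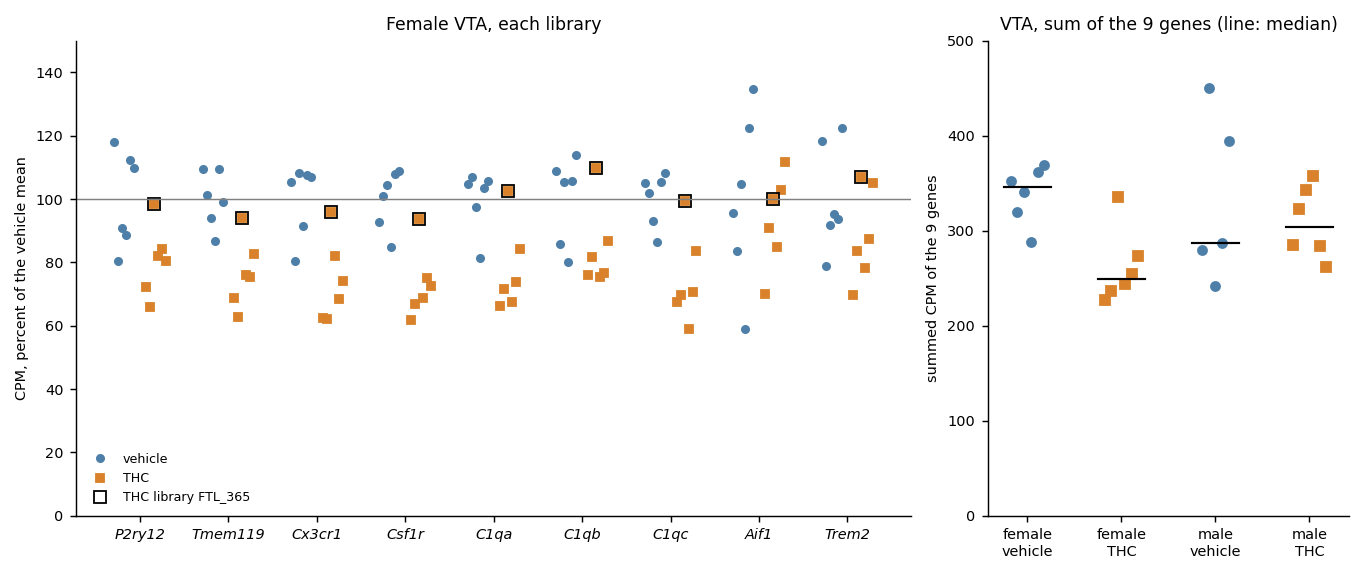
Left, CPM of each gene in each female VTA library as a percent of the vehicle mean (grey line at 100), vehicle as circles, THC as squares and THC library FTL_365 outlined. Right, summed CPM of the 9 genes in each VTA library by sex and treatment, with the median as a line; female THC libraries lie at 226.7 to 273.6 apart from FTL_365 at 335.9, and 2 male vehicle libraries reach 394.4 and 449.8.

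Summed over the 9 members, the 6 female vehicle libraries were at 352.2, 319.6, 340.8, 288.3, 361.3 and 368.8 CPM and the 6 THC libraries at 226.7, 236.6, 335.9, 244.3, 254.2 and 273.6 CPM. FTL_365, at 335.9 CPM, was also the deepest of these 12 libraries, with an expected count of 38483520 against 11228721 to 22778428 in the others. It had the highest sums of the 6 THC libraries for border macrophage genes (42.3 CPM against 11.9 to 25.4), for blood genes, mostly haemoglobin (2353 CPM against 68.3 to 708), and for interferon-stimulated genes (220 CPM against 110 to 139). The vehicle libraries had 24.8 to 33.6 CPM of border macrophage genes and 549 to 988 CPM of blood genes. Their interferon-stimulated genes were at 128 to 183 CPM. FTL_365 was also the highest THC library for astrocyte genes (5239 CPM against 3847 to 4669) and mural genes (174.58 CPM against 110.34 to 132.35). Vehicle libraries had 4320 to 5201 and 118.81 to 137.19 CPM of these. The same held for endothelial, cortical, activated microglia, other microglia and other complement genes. It did not hold for neuronal, dopaminergic, striatal, oligodendrocyte, oligodendrocyte precursor and choroid plexus genes, or for ligands and partners of the member receptors. The share of counts in ribosomal protein genes was 1.40% to 1.68% with vehicle and 1.36% to 1.72% with THC, and that in mitochondrially encoded genes 2.99% to 4.65% and 4.02% to 4.72%. The part of these measures in the levels of the members was not tested.

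Other genes known for microglia were also counted in the female VTA. Among libraries of the same group the mean of 29 of them correlated with that of the members at r = 0.945. Their counts are therefore not separate from those of the members. Of 30 such genes 11 had an unadjusted p under 0.05 and a lower level with THC, where 4.38% of all genes did. None was higher at that threshold, none was called, and the median log2 fold change was -0.23. Selplg, a selectin ligand, was at 25.3 to 36.6 CPM with vehicle and at 18.3 to 28.2 CPM with THC (-0.44 ± 0.11). Tyrobp, the signalling adaptor of TREM2, was at 7.06 to 12.7 CPM and at 6.22 to 8.52 CPM (-0.48 ± 0.14), and Inpp5d, a lipid phosphatase of immune receptor signalling, at 9.51 to 11.1 CPM and at 7.15 to 9.82 CPM (-0.35 ± 0.10). Without FTL_365 the count was 18 of 30, with 1 gene called, and 7.62% of all genes were then lower at that threshold. Each of the 3 named genes had an adjusted p of 0.512 (edgeR), and their groups overlapped.

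Of the ligands and partners of the member receptors 4 of 18 tested genes had an unadjusted p under 0.05, all lower with THC, and the median log2 fold change was -0.09. They included Plcg2 (-0.36 ± 0.11), an enzyme downstream of TREM2 and TYROBP, and Csf1 (-0.22 ± 0.09), a ligand of CSF1R, at 26.4 to 36.5 CPM with vehicle and at 25.3 to 33.4 CPM with THC. Of 12 tested complement genes other than the C1q chains 2 were lower at that threshold, Itgam (-0.28 ± 0.08) and the C3a receptor gene C3ar1 (-0.68 ± 0.27). Of 13 tested genes of activated microglia 3 were lower, the lipoprotein gene Apoe (-0.22 ± 0.08), the receptor gene Axl (-0.20 ± 0.09) and the lysosomal gene Cd68 (-0.32 ± 0.15), and none was higher. Astrocytes also express Apoe. The lists overlap, since Tyrobp is among both the other microglia genes and the partners, and Itgam among both the other microglia and the complement genes, so these 2 genes were counted in 2 lists each. The adjusted p of each of the named genes was at least 0.512 (edgeR).

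Markers of other cells in the same punches were counted in the same way. Astrocyte genes had 4 of 10 lower, among them Agt (-0.43 ± 0.12), Gja1 (-0.20 ± 0.07) and the water channel gene Aqp4 (-0.49 ± 0.21), and oligodendrocyte precursor genes 2 of 6, Sox10 (-0.16 ± 0.06) and Gpr17 (-0.24 ± 0.09). Dopaminergic genes had 2 of 8 lower, Foxa1 (-0.37 ± 0.12) and Pitx3 (-0.51 ± 0.22), border macrophage genes 1 of 7, Stab1 (-0.37 ± 0.17), and striatal genes 1 of 7, Ppp1r1b (-0.28 ± 0.09). Neuronal genes had 2 of 10 higher, Snap25 (0.19 ± 0.08) and Rbfox3 (0.18 ± 0.08), and endothelial genes 1 of 10 higher, Slco1a4 (0.21 ± 0.09). Whatever the p, 4 of the 10 neuronal and 8 of the 10 endothelial genes were below 0. Over all 15747 genes, 731 were higher and 690 lower at an unadjusted p under 0.05. Oligodendrocyte, interferon, blood, mural, choroid plexus and cortical genes had 0 at that threshold, of 10, 12, 4, 6, 4 and 2 tested. None of these genes was called by edgeR (adjusted p of at least 0.512). Without FTL_365, an alternative chosen after the data had been seen, 7.62% of all genes were lower at that threshold. The lower counts were then 6 of 7 for border macrophage genes, 7 of 12 for interferon genes, 7 of 12 for the other complement genes, 2 of 4 for blood genes and 5 of 10 for astrocyte genes. In that fit 1 border macrophage gene and 1 interferon gene were called lower, with list medians of -1.06 and -0.561. With all libraries and whatever the p, all 8 dopaminergic genes (median -0.37), all 7 border macrophage genes (median -0.42) and all 6 oligodendrocyte precursor genes (median -0.09) were below 0. So were the 4 tested blood genes (median -0.14) and the 2 tested cortical genes (median -0.72). The members, with a median of -0.36, were therefore not alone in this. What part any of these lists has in the difference of the members was not tested.

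In the male VTA the vehicle libraries spanned a wide range. Their member sums were 279.6, 449.8, 241.5, 287.4 and 394.4 CPM, and the 6 THC libraries had 285.1, 323.1, 342.6, 358.1, 283.9 and 262.1 CPM. All THC libraries lay inside the range of the vehicle libraries, of which FTL_370 and FTL_373 were highest. Csf1r was at 79.0, 112, 63.6, 83.2 and 94.4 CPM in the vehicle libraries and at 60.3, 77.3 and 86.9 CPM (lowest, median, highest) with THC, a log2 fold change of -0.19 with a 95% interval of -0.46 to 0.08. No member had an unadjusted p under 0.05, where 5.92% of all genes did. The median of the members was -0.10, and it was 0.04 without FTL_370 and 0.01 without FTL_373.

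The difference between the sexes was itself tested. The interaction term in the VTA, the log2 fold change of THC in males minus that in females, was above 0 for all 9 members, from 0.08 for Trem2 to 0.35 for C1qc. None was called (smallest adjusted p = 0.8, edgeR), nor had any an unadjusted p under 0.05, and DESeq2 called 0. The 95% interval for Csf1r, -0.09 to 0.60, includes both 0 and a difference as large as the effect in females. With the sexes in 1 fit of the VTA, 5 of 9 members had an unadjusted p under 0.05 and were lower with THC, where 5.08% of all genes were, with Csf1r at -0.33 ± 0.09 and Cx3cr1 at -0.33 ± 0.09 (adjusted p = 0.354 for both). No member was called by edgeR in a fit of both sexes or in an interaction in any region, with 0% of all genes called except 0.0059% for the interaction in the Amy. Outside the VTA 2 of 9 members had an unadjusted p under 0.05 in the fit of both sexes in the NAc, where 1700 of 16494 genes did. In the interaction in the PFC 1 of 9 did, where 965 of 16451 genes did. In the interaction in the Amy 0 of 9 did with all libraries, where 2675 of 16956 genes did. Without FTL_344 and FTL_356 that interaction had 2 such members (smallest adjusted p = 0.268 in place of 0.409, edgeR). The count over all genes in that fit is not given here. The median of the members in the Amy fit of both sexes then moved from -0.05 to 0.0. DESeq2 called 0 wherever it gave the members an adjusted p, which it did for none of them in the fit of both sexes in the NAc.

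Levels differed a little between the labelled sexes. In the NAc all 9 members had an unadjusted p under 0.05 and a higher level in males, where 8.93% of all genes did, and 3 passed an adjusted p of 0.05, where 1.41% of all genes were higher in males. Csf1r was at 64.0, 71.0 and 85.8 CPM (lowest, median, highest of 12) in females and at 79.8, 83.9 and 100.1 CPM in males, a log2 difference of 0.28 ± 0.04 (adjusted p = 0.000325, edgeR). C1qb (0.23 ± 0.05, adjusted p = 0.0133) and Trem2 (0.29 ± 0.07, adjusted p = 0.0338) were the others. Over the alternatives the adjusted p of Trem2 ran from 0.0106 by DESeq2 to 0.0648 without the male vehicle library FTL_323. That library was the highest of its group for Csf1r, C1qb and Trem2, and it was left out after the data had been seen. The groups overlapped for all 3 genes. In the PFC all 9 members were above 0 for males against females. Of these 5 had an unadjusted p under 0.05, where 1300 of 16230 genes were higher in males at that threshold. There 1 member, P2ry12, passed an adjusted p of 0.05, where 0.887% of all genes were higher in males. It was at 29.2, 31.3 and 35.6 CPM in females and at 33.7, 35.3 and 36.8 CPM in males, a log2 difference of 0.15 ± 0.03 (adjusted p = 0.00416, edgeR). The lower male libraries overlapped the upper female ones. No member was called in any region by edgeR or DESeq2, with 0.24% (PFC), 2.64% (DMS), 0.243% (NAc), 0.012% (Amy) and 0.109% (VTA) of all genes called. In the DMS the direction was the opposite, with 8 of 9 members below 0 for males against females and a median of -0.03. There Tmem119 (-0.12 ± 0.05), C1qa (-0.13 ± 0.05) and C1qb (-0.11 ± 0.04) had an unadjusted p under 0.05 and were lower in males, where 14% of all genes were, and the smallest adjusted p was 0.068 by edgeR, for C1qa, and ran over its alternatives from 0.0568 by DESeq2 to 0.105 without a filter. In the Amy 1 of 9 members had an unadjusted p under 0.05, where 999 of 16653 genes did. In the VTA 1 of 9 did, where 1185 of 16540 genes did. No member had an adjusted p under 0.05 in either region by edgeR. Without FTL_344 and FTL_356 the Amy had 3 members at an unadjusted p under 0.05. The count over all genes in that fit is not given here. All 9 members were then above 0 in place of 8, and the smallest adjusted p moved from 0.811 to 0.593. The labels name no batch, so the handling of the sexes and sex itself cannot be told apart.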

How the data were processed

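RNA was extracted from punches of 5 brain regions, and polyadenylated transcripts were sequenced as 119 stranded paired-end libraries. By the paper's methods a male vehicle VTA sample of low RNA quality was left out before that. The authors then removed 1 further male VTA sample as an outlier, which the methods do not name. All 119 libraries were used here. Per the paper's methods and the labels the authors trimmed reads with cutadapt 2.9, aligned them with STAR 2.7.3a to mm10 and estimated gene counts with RSEM 1.3.1. The deposited values were expected counts per gene symbol in 2 tables, of which 1 held the cortical and dorsal striatal libraries and the other held the rest. Of the values above 0, 2.80% to 6.91% per library were not whole. They were rounded to whole numbers.

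Depth per library was 3090998 to 77042133. Differences were tested with edgeR 4.0.16 (R 4.3.3, filterByExpr, TMM, quasi-likelihood test) on all genes, fitting each region and sex alone for THC, each region for both sexes, the interaction and sex, and all vehicle libraries for regions, with Benjamini-Hochberg adjustment over all genes tested. For a call the adjusted p had to be under 0.05 and the log2 fold change 0.4 or more in size, as in the study's methods. Levels were given as CPM after TMM scaling, with a prior count of 2 added for log2 values. The alternatives were DESeq2 1.42.0, its size factors in edgeR, library totals, no filter, 1 fit per region and left-out libraries. The procedures were tested on simulated data.

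The named genes were all 9 members, the genes of the other lists called for THC, up to 3 genes per list with the smallest unadjusted p under 0.05 in the female VTA, and the 10 genes most like the members, of which 1 is not reported here. The members and the lists were chosen with earlier results of these data known. Gene positions were taken from the annotation of GRCm38. Of the members, 6 had an entry in the RefSeq promoter table, and Tmem119, Csf1r and C1qa had none. Labels give the tissue of the DMS libraries as dorsolateral striatum and the study's methods as dorsal medial striatum, and give the strain as C57BL/6J where those methods name a C57BL6/N substrain.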

Additional observations from a re-analysis of the deposited data

Results flagged for a closer look

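A library stood apart from the other libraries of its group, by the gap to its nearest neighbour over the range of the group, in 11 of 180 tests of a member in a group, and chance gives about 1 in 20. The male NAc vehicle library FTL_323 held 4 of them. It had Cx3cr1 at 57.2 CPM (nearest other library 46.2), Csf1r at 100.05 CPM (86.4), C1qc at 40.1 CPM (29.6) and Trem2 at 14.5 CPM (10.6). The male Amy THC library FTL_352 was high for Cx3cr1, at 59.6 CPM (48.3), and for C1qa, at 51.6 CPM (37.6). In the female VTA the THC library FTL_365 was high for C1qb, at 55.8 CPM (44.1), and the vehicle library FTL_360 low for C1qa, at 39.6 CPM (47.4). The others were P2ry12 in the male NAc THC library FTL_331, at 30.2 CPM (26.1), Cx3cr1 in the male Amy vehicle library FTL_346, at 58.9 CPM (50.1), and Trem2 in the female Amy vehicle library FTL_338, at 13.5 CPM (10.8).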

How the results depend on the processing

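No paired analysis was possible because the library numbers are unique and no label ties libraries to a mouse. The cause of the changes that follow was not tested. In the female VTA DESeq2 called 1 member, leaving out 1 library at a time gave 0 to 4, with 4 without FTL_365, and the other microglia genes at an unadjusted p under 0.05 then numbered 18 in place of 11. Leaving out male vehicle VTA libraries 1 at a time gave 0 to 2 members called for VTA against Amy and 1 to 3 for VTA against DMS, with 2 and 1 without FTL_372. Library totals in place of TMM gave 1 member called for VTA against DMS, 3 for Amy against PFC, 4 for NAc against DMS, 1 for NAc against PFC and 8 for DMS against PFC. They gave medians of the members of 0.53 for VTA against PFC, -0.20 for Amy against DMS, 0.30 for Amy against PFC and 0.21 for NAc against PFC. They turned VTA against DMS to 0.07 for Tmem119, 0.06 for Csf1r, 0.09 for C1qb and 0.10 for C1qc, and VTA against PFC to 0.08 for Aif1. Csf1r in Amy against NAc turned to 0.01 with DESeq2, its size factors or no filter and to 0.0059 with library totals, and Cx3cr1 in NAc against PFC to -0.0062 with size factors and -0.0063 with DESeq2.

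With 1 library left out the THC effect turned sign in the female VTA for Aif1 (-0.21 to 0.0048), in the male VTA for C1qa (-0.14 to 0.12), C1qb (-0.16 to 0.09), C1qc (-0.14 to 0.08), Aif1 (-0.05 to 0.36) and Trem2 (-0.18 to 0.04), and in both sexes for Aif1 (-0.08 to 0.10). The interaction did for Trem2 (-0.0016 to 0.22), and male against female in the VTA for Tmem119 (-0.04 to 0.06), C1qa (-0.0096 to 0.10), C1qb (-0.0042 to 0.10) and Aif1 (-0.08 to 0.09). VTA against Amy did for Aif1 (-0.04 to 0.17), and VTA against DMS for C1qb (-0.12 to 0.008) and C1qc (-0.09 to 0.02). Depth limits Aif1 and Trem2 most, with 14 and 27 reads in the shallowest library.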

Other observations

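The proportion of 2 resting-state genes differed between regions. The ratio of Tmem119 to P2ry12, both in CPM and over the libraries of both treatments, was 0.579 ± 0.0410 (SD, n = 24) in the PFC, 0.668 ± 0.0685 (n = 24) in the DMS, 0.763 ± 0.0816 (n = 24) in the NAc, 0.803 ± 0.0974 (n = 24) in the Amy and 1.02 ± 0.118 (n = 23) in the VTA. The highest PFC library, at 0.673, lay below the lowest VTA library, at 0.885. The ratio of Trem2 to Csf1r was highest in the DMS, at 0.177 ± 0.0201, and lowest in the NAc, at 0.117 ± 0.0141, and the libraries of these regions overlapped between 0.128 and 0.155. A ratio within a library does not depend on its scaling, but PFC and DMS were deposited in another table than the other regions, and no test was made of these ratios.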
